A study of Mus musculus with 8 samples.

Results

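The genes described here are 10 enzymes of glycolysis, Hk1, Hk2, Gpi1, Pfkl, Aldoa, Tpi1, Gapdh, Pgk1, Pkm and Ldha, picked by name from the table of normalized counts after its Ensembl identifiers had been paired with gene symbols. All 10 had a value, out of 20172 genes in the table, and all 10 were among the 13990 genes with a mean of at least 10 normalized counts that were tested. RNA was sequenced from regulatory T cells (Tregs) of the spleen of Foxp3 CreYFP mice, labelled as female, in which a yellow fluorescent protein and Cre recombinase are expressed from the Foxp3 gene. Freshly sorted YFP+ CD4 T cells with TNFR2 (tumor necrosis factor receptor 2, the product of Tnfrsf1b) on the surface were compared with those without it, with 4 libraries (replicates 1 to 4) of each population. Both populations carried the same genotype and received no treatment, and the labels do not say whether libraries came from separate mice, so p-values measure the spread between these samples only. The sort selects on TNFR2, so the populations are not matched in any other respect.

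Glycolysis turns a molecule of glucose into pyruvate in the cytosol. Its upper steps spend ATP to trap and split the sugar, its lower steps, from glyceraldehyde-3-phosphate on, return ATP and NADH, and lactate dehydrogenase can then turn pyruvate into lactate and restore NAD+. Activated and dividing T cells use much glucose in this way, whereas resting Tregs are known to lean more on oxidation in mitochondria.

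By Tnfrsf1b and the abundance of Foxp3, the libraries matched their labels. Tnfrsf1b stood at 2501 ± 544 (SD, n = 4) normalized counts in TNFR2+ Tregs and at 1321 ± 168 in TNFR2- Tregs without overlap, and Foxp3, the transcription factor that defines Tregs, was abundant in all 8 libraries (2812 to 4033). Of 7 listed Treg genes, 4 passed the test upward and 0 downward: Ctla4, Ikzf2, Cd3e and Tnfrsf1b, whose product the sort selects on. Among all genes tested, 4.52% passed upward and 3.39% downward. Foxp3 (log2 fold change -0.23, limma adjusted p = 0.232) did not pass. Neither did Il2ra (-0.34, limma adjusted p = 0.086), with 2561 to 3070 in TNFR2+ and 3219 to 3990 in TNFR2- Tregs. The sum of normalized counts was 9576920 to 11492762 per library, and the estimated depth was 9100000 to 12110000 reads. TNFR2- replicate 3 stood apart on the second principal component of all tested genes (91.3, against -39.1 to 17.96 in the others), and calls that changed without it are given beside the results. Proliferation genes differed widely between the populations: the summed level of 10 such genes was 4092 to 7754 in TNFR2+ and 642 to 1647 in TNFR2- Tregs, and 6 of the 10 passed the test upward. Its part in the differences of the glycolytic genes was not tested. Summed markers of other cells stood far below the summed Treg genes (20832 to 32697). The 9 of 10 listed B cell genes with a value summed to 433 to 558 in TNFR2+ and 249 to 519 in TNFR2- Tregs, and 6 of 10 myeloid genes to 175 to 232 and 129 to 232. Cd22 held most of the B cell sum in TNFR2+ Tregs (273 to 350, log2 fold change 1.195, limma adjusted p = 0.0612). Most of the myeloid sum was Cst3 (166 to 214 in TNFR2+ and 118 to 159 in TNFR2- Tregs). The 7 of 10 cytotoxic lymphocyte genes with a value summed to 142 to 212 and 93.4 to 170. Of these, 1 gene was called higher, Nkg7 (log2 fold change 3.19, limma adjusted p = 0.00927). The 1 erythroid gene of 9 summed to at most 12.1, and the 1 platelet gene of 6 to 12.2 to 221 and 31.2 to 178. The part of such cells in the results was not tested.

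Of the 10 enzymes, 4 were higher in TNFR2+ Tregs and 0 lower: Tpi1, Gapdh, Pgk1 and Pkm rose by 1.5 to 2.1 fold, whereas Hk1, Hk2, Gpi1, Pfkl, Aldoa and Ldha did not pass the test (limma on log2(normalized count + 1), adjusted p below 0.05 over all 13990 genes). Among all genes tested, 4.52% were called higher and 3.39% lower. At an unadjusted p below 0.05, 7 enzymes were higher and 0 lower, beside 3211 of all 13990 genes in either direction. In bulk RNA, a larger share of cells with much of a transcript and more of it in every cell cannot be told apart. The 4 libraries of TNFR2+ Tregs lay above all 4 of TNFR2- Tregs for 6 enzymes (Hk1, Aldoa, Tpi1, Gapdh, Pgk1 and Pkm), and lay below them for 0, while 8.08% of all genes were separated upward and 7.29% downward. The median log2 fold change of the 10 was 0.50, beside -0.01 for all genes tested. Of the 4 calls, 3 belong to the steps from triosephosphate to 3-phosphoglycerate, which follow each other, and the fourth to the last step before pyruvate.

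**Figure D1:**
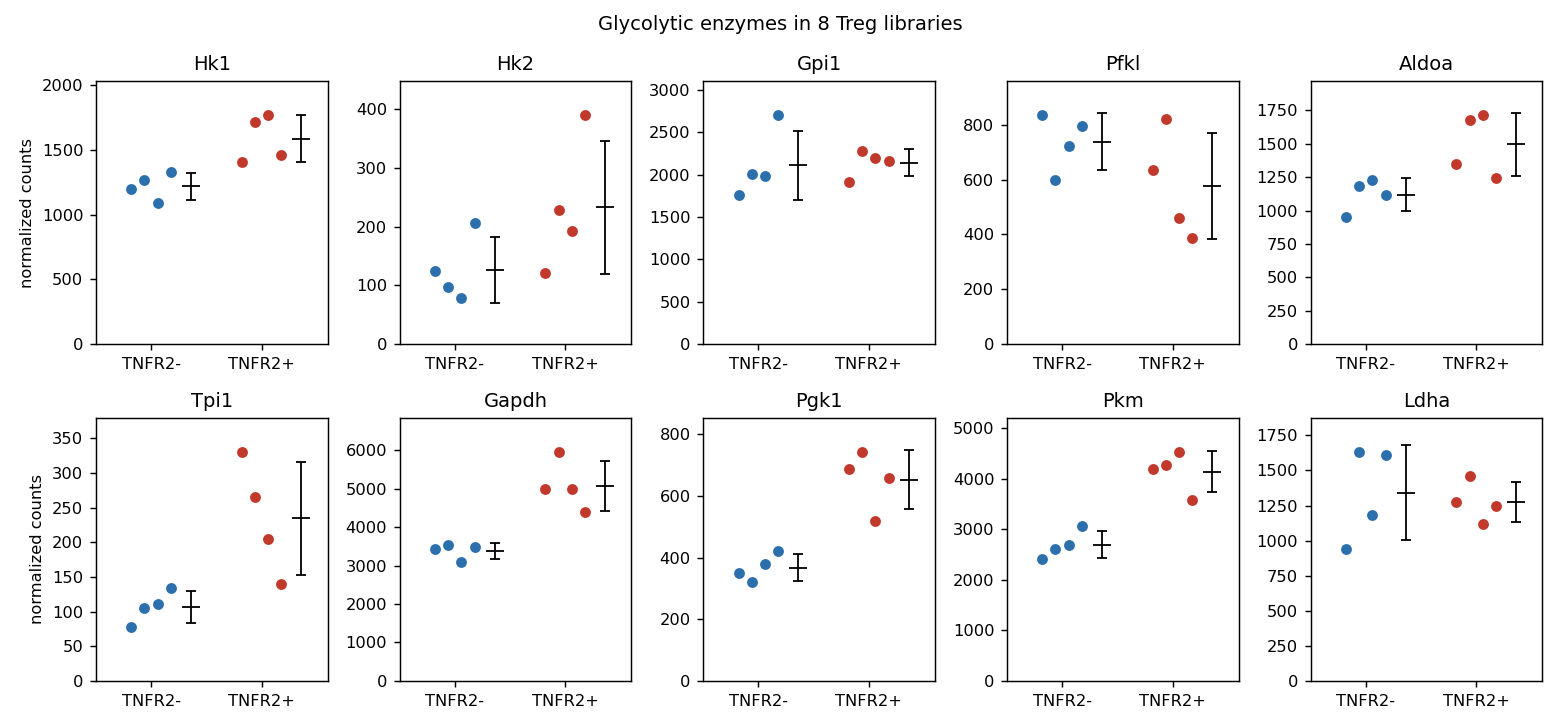
Normalized counts (vertical axes, each starting at 0) of the 10 enzymes in pathway order, with 1 point a library and the mean ± SD beside each group of 4. The groups do not overlap for Hk1, Aldoa, Tpi1, Gapdh, Pgk1 and Pkm, and they overlap for Hk2, Gpi1, Pfkl and Ldha.

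Hexokinases phosphorylate glucose and so hold it in the cell. Hk1 (GRCm38 chromosome 10, 62268855 to 62379908, minus strand), the form found in most tissues, reached 1402, 1717, 1764 and 1456 normalized counts in replicates 1 to 4 of TNFR2+ Tregs. In TNFR2- Tregs it had 1193, 1264, 1088 and 1330. All TNFR2+ libraries were above all TNFR2- libraries, by a narrow margin between the nearest, 1402 and 1330. The log2 fold change of 0.38 (SE 0.13) did not pass over all genes (limma adjusted p = 0.102).

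Hk2 (chromosome 6, 82725025 to 82774454, minus strand), the inducible hexokinase of growing cells, was the scarcest of the enzymes per kilobase of transcript and had the largest coefficient of variation. It had 121, 228, 193 and 389 normalized counts in TNFR2+ Tregs and 125, 98.0, 77.9 and 206 in TNFR2- Tregs. In each group replicate 4 was the highest, and the groups overlapped. A log2 fold change of 0.84 (SE 0.38, 95% interval 0.03 to 1.66) came with a limma adjusted p of 0.201. The coefficient of variation in TNFR2+ Tregs was 48.8%, where counting alone would give 6.37%.

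Gpi1 (chromosome 7, 34201330 to 34230336, minus strand) encodes glucose-6-phosphate isomerase, which turns glucose-6-phosphate into fructose-6-phosphate. Its normalized counts were 1914, 2281, 2201 and 2166 in TNFR2+ Tregs and 1759, 2002, 1987 and 2699 in TNFR2- Tregs. The highest and the lowest library were both TNFR2-. A log2 fold change of 0.04 (SE 0.14, limma adjusted p = 0.918) was fitted, and its 95% interval of -0.27 to 0.34 covers differences in both directions.

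Pfkl (chromosome 10, 77986947 to 78010083, minus strand) encodes the liver type of phosphofructokinase, the enzyme of the first committed step. It had 636, 820, 461 and 387 normalized counts in TNFR2+ Tregs and 834, 598, 724 and 796 in TNFR2- Tregs. Only TNFR2+ replicates 3 and 4 lay below every TNFR2- library. Its fitted change, -0.41 on the log2 scale (SE 0.22, limma adjusted p = 0.305), was the lowest of the 10.

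Aldoa (chromosome 7, 126795234 to 126800751, minus strand) encodes aldolase A, which splits fructose-1,6-bisphosphate into 2 triose phosphates. Normalized counts were 1350, 1679, 1713 and 1243 in TNFR2+ Tregs and 951, 1182, 1229 and 1116 in TNFR2- Tregs. The groups did not overlap, though TNFR2+ replicate 4 was only just above TNFR2- replicate 3. With a log2 fold change of 0.41 (SE 0.15), Aldoa did not pass (limma adjusted p = 0.111).

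Tpi1 (chromosome 6, 124810586 to 124814296, minus strand) encodes triosephosphate isomerase, which interconverts both products of aldolase. It had 330.0, 265, 205 and 139.5 normalized counts in TNFR2+ Tregs and 77.7, 105, 111 and 134.6 in TNFR2- Tregs. The populations were separated only by the small gap between replicate 4 of each. The log2 fold change of 1.08 (SE 0.30, limma adjusted p = 0.0446) was the largest of the 10. This call was the least secure of the 4: it held in 11 of 21 fits, and among the fits that left out a library it held in 1 of 8, the one without TNFR2+ replicate 4. Without each of the other 7 libraries in turn the adjusted p was 0.0519 to 0.139, with a log2 fold change of 0.90 to 1.20.

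Gapdh (chromosome 6, 125161715 to 125166467, minus strand) encodes glyceraldehyde-3-phosphate dehydrogenase, which makes the NADH of glycolysis and is often taken as a reference gene. Per kilobase of transcript it was the most abundant of the 10 in every library. It had 5000.2, 5956, 4987 and 4388 normalized counts in TNFR2+ Tregs and 3440.2, 3537, 3089 and 3474 in TNFR2- Tregs. Every TNFR2+ library was above every TNFR2- library, with 4388 and 3537 the nearest. It rose by 0.58 on the log2 scale (SE 0.11, limma adjusted p = 0.00723).

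Pgk1 (chromosome X, 106187100 to 106203699, plus strand) encodes phosphoglycerate kinase 1, which makes the first ATP of the pathway. Normalized counts were 689, 742, 518 and 660 in TNFR2+ Tregs and 349, 321, 380 and 421 in TNFR2- Tregs. The nearest libraries of both populations were 518 and 421. Its log2 fold change of 0.82 (SE 0.17, limma adjusted p = 0.0111) passed in all 21 fits, where its adjusted p was 0.00542 to 0.0494.

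Pkm (chromosome 9, 59656368 to 59679375, plus strand) encodes pyruvate kinase of muscle and most other cells, in the M1 and M2 splice forms, which the table does not separate. It had 4183, 4280.0, 4527 and 3577 normalized counts in TNFR2+ Tregs and 2420.0, 2618, 2695 and 3058 in TNFR2- Tregs. The log2 fold change of 0.62 (SE 0.12) had the lowest adjusted p of the 10 (limma, 0.00557). Without an intensity trend in the variances only Pgk1 of the 10 enzymes was called, with adjusted p-values of 0.0929 for Tpi1, 0.0836 for Gapdh and 0.0710 for Pkm.

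Ldha (chromosome 7, 46841475 to 46855627, plus strand) encodes the A subunit of lactate dehydrogenase, which favours the making of lactate. Normalized counts were 1274, 1463, 1118 and 1248 in TNFR2+ Tregs and 938, 1631, 1184 and 1611 in TNFR2- Tregs. The TNFR2+ libraries all lay inside the range of the TNFR2- libraries. The log2 fold change was -0.04 (SE 0.18, 95% interval -0.43 to 0.35, limma adjusted p = 0.925), and its difference from the changes of the other enzymes was not tested.

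The enzymes followed their average profile more or less closely, and whether their changes differed from each other was not tested. Centred on its own mean log2 value, the average enzyme stood at 0.17, 0.42, 0.17 and 0.11 in TNFR2+ replicates 1 to 4 and at -0.35, -0.25, -0.30 and 0.04 in TNFR2- replicates 1 to 4. TNFR2+ replicate 2 had all 10 enzymes above their own mean, and the other TNFR2+ libraries 7, 8 and 6. TNFR2- replicates 1, 2 and 3 had 1 enzyme each above its mean, whereas replicate 4 had 4 (Hk2, Gpi1, Pfkl and Ldha). Hk1, Gapdh and Pkm lay closest to the average profile, at a root mean square difference of 0.12, 0.13 and 0.14 on the log2 scale, and Hk2 and Pfkl lay farthest, at 0.57 and 0.50. These distances also hold the spread between libraries of a group, and do not set it apart from a differing change between populations.

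Outside the 10, the genes whose profile over the 8 libraries was nearest to the average enzyme, among 10234 with a mean of at least 50, were Ppia (root mean square difference 0.03), Anp32b (0.05), Eif5a (0.06), Atp5a1 (0.07) and Ddb1 (0.07). They encode cyclophilin A, a nuclear acidic phosphoprotein, a translation factor, a subunit of ATP synthase and a DNA damage binding protein. The average profile was made from libraries of both populations, so a gene near it differs between them by construction.

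Between genes, levels are compared per kilobase of the principal transcript. In TNFR2+ Tregs the order was Gapdh (3579 ± 457 normalized counts per kb, SD, n = 4), Pkm (1703 ± 166), Aldoa (990.2 ± 156), Gpi1 (742 ± 55.0), Ldha (722 ± 80.6), Hk1 (411 ± 47.4), Pgk1 (357 ± 52.4), Pfkl (154 ± 51.8), Tpi1 (146 ± 50.8) and Hk2 (42.2 ± 20.6). Gpi1 and Ldha, and Pfkl and Tpi1, were neighbours closer to each other than their spread. In TNFR2- Tregs the same order by level began with Gapdh (2384 ± 142) and Pkm (1109 ± 110), and then ran through Ldha (759 ± 192), Aldoa (741 ± 80.4) and Gpi1 (732 ± 141), which lay within their spread of each other. Hk1 (316 ± 27.0), Pgk1 (201 ± 23.6), Pfkl (198 ± 27.8), Tpi1 (66.6 ± 14.6) and Hk2 (23.0 ± 10.2) followed, with Pgk1 and Pfkl level. In TNFR2+ Tregs Pgk1 thus stood at 357 against 154 for Pfkl, whereas in TNFR2- Tregs they stood at 201 and 198. This pair was not among the ratios tested below. Summed over its isozymes, phosphofructokinase stood at 584 ± 87.5 per kb in TNFR2+ and at 599 ± 64.9 in TNFR2- Tregs.

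Several steps are served by isozymes, so the isozymes of a step were added per kilobase. The totals that hold only Gpi1, Tpi1, Gapdh, Pgk1, Pgam1 or Pkm repeat the values of that gene. The GAPDH step had 2176 to 2491 in TNFR2- and 3090.0 to 4195 in TNFR2+ Tregs, and its ratio of means was 1.5. The groups were also separated upward at hexokinase (ratio 1.34), aldolase (1.34), triosephosphate isomerase (2.2), phosphoglycerate kinase (1.78) and pyruvate kinase (1.54). They overlapped at glucose uptake (0.83), glucose-6-phosphate isomerase (1.01), phosphofructokinase (0.98), phosphoglycerate mutase (1.6), enolase (0.94), lactate dehydrogenase (1.06) and lactate export (1.22). The overlap at glucose uptake rested on TNFR2- replicate 3 (373.9 per kb), since the other TNFR2- libraries had 481 to 486, above all TNFR2+ libraries (368 to 387).

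**Figure D2:**
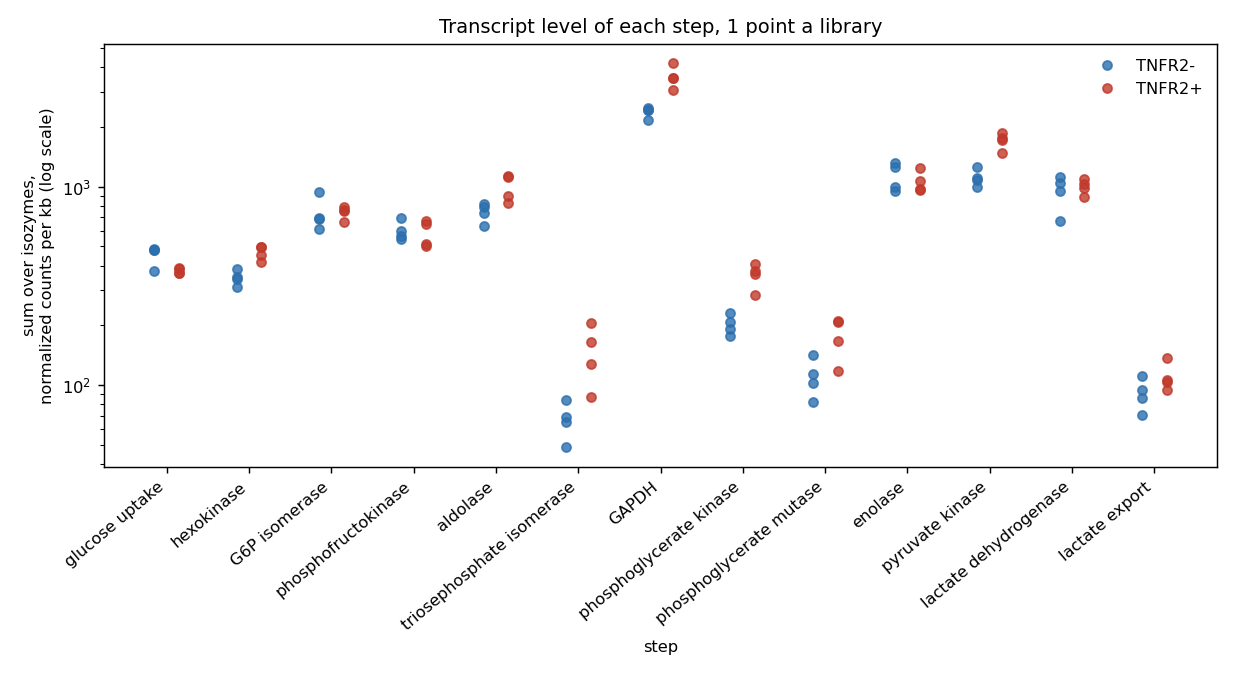
Sum over the isozymes of each step, in normalized counts per kb on a log axis, with 1 point a library for TNFR2- (blue) and TNFR2+ (red) Tregs. The populations are separated at hexokinase, aldolase, triosephosphate isomerase, GAPDH, phosphoglycerate kinase and pyruvate kinase, and overlap at the other steps.

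The makeup of the steps showed how far each enzyme stands for its step. Hk1 made up 88.3% ± 3.94 (SD, n = 4) of the hexokinase total in TNFR2+ and 91.2% ± 1.66 in TNFR2- Tregs, and Hk2 9.06% ± 4.52 and 6.49% ± 2.33. Aldoa made up 99.4% ± 0.42 of the aldolase total in TNFR2+ and 99.5% ± 0.43 in TNFR2- Tregs. Pfkl was a minor part of the phosphofructokinases, with 25.9% ± 5.15 and 33.1% ± 3.50, while the platelet type Pfkp held 67.6% ± 3.90 and 61.3% ± 3.48. Ldha held 72.3% ± 3.32 of lactate dehydrogenase in TNFR2+ and 80.1% ± 7.55 in TNFR2- Tregs, and most of the rest was Ldhb, the subunit of heart and oxidative tissue (27.7% ± 3.35 and 19.8% ± 7.58).

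None of the 9 pairs of genes compared as log2 ratios differed between the populations after adjustment (exact two-sided permutation tests over 70 relabellings, smallest possible p = 0.0286). A pair alone at that smallest p has an adjusted p of 0.257 over the 9, so the adjusted values could hardly pass and say little about the pairs. The ratio of Pfkp to Pfkl was 1.42 fold higher in TNFR2+ Tregs (exact permutation p = 0.0857, adjusted p = 0.257), that of Ldhb to Ldha 1.63 fold higher (exact p = 0.114, adjusted p = 0.257), and that of Hk2 to Hk1 1.38 fold higher (exact p = 0.343, adjusted p = 0.514). The spread of these ratios between libraries reached 2.06 (SD, log2 scale) for Aldoc to Aldoa in TNFR2- Tregs.

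Around the 10 enzymes, 68 further genes of glucose metabolism were listed, of which 57 had a value and 53 were tested. Of these 3 were higher (Eno2, Pck2 and Hif1a) and 1 lower (Pdk1) in TNFR2+ Tregs, with a median log2 fold change of 0.17. At an unadjusted p below 0.05 there were 11 higher and 4 lower of the 53, beside 3211 of all 13990 genes in either direction. The list as a whole was called at 5.7% upward, near the 4.52% of all genes.

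At the 2 steps of glycolysis that the 10 leave out, Pgam1 and Eno1 are the main genes. Pgam1, phosphoglycerate mutase 1, had 297, 367, 208 and 373 normalized counts in TNFR2+ and 145, 182, 249.8 and 201 in TNFR2- Tregs. The change of 0.67 on the log2 scale (SE 0.25, limma adjusted p = 0.129) missed the threshold. The groups overlapped only between replicate 3 of each population, at 208 and 249.8. Eno1, with 91.2% ± 3.25 (SD, n = 4) of the enolase total in TNFR2+ and 92.1% ± 5.12 in TNFR2- Tregs, had a log2 fold change of -0.10 (SE 0.15, limma adjusted p = 0.746), with 1751 to 2414 in TNFR2+ and 1726 to 2401 in TNFR2- Tregs. Eno2, the neuronal enolase, was scarce but separated, with 69.3, 74.6, 136.5 and 89.1 normalized counts in TNFR2+ and 30.8, 1.32, 17.9 and 6.87 in TNFR2- Tregs. The fitted log2 change was 3.14 (SE 0.72, limma adjusted p = 0.0179), a size that depends on the pseudocount because TNFR2- values approach 0. Without TNFR2+ replicate 3 the adjusted p was 0.0697. Eno2 was 3.21% ± 1.33 (SD, n = 4) of the enolase total in TNFR2+ and 0.51% ± 0.50 in TNFR2- Tregs.

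Before the first step, the main glucose transporters, Slc2a1 and Slc2a3, did not pass the test. Slc2a1, the transporter induced in activated T cells, had 486 to 712 normalized counts in TNFR2+ and 521 to 826 in TNFR2- Tregs, with a log2 fold change of -0.27 (SE 0.19, limma adjusted p = 0.427). Slc2a3 had 486 to 737 and 666 to 1088, with -0.44 (SE 0.19, limma adjusted p = 0.178). After the last step, the monocarboxylate transporter Slc16a3, which exports lactate, had 237, 149.9, 71.7 and 98.9 in TNFR2+ and 29.3, 40.1, 17.9 and 97.4 in TNFR2- Tregs. Its log2 fold change of 1.71 (SE 0.52) missed the threshold (limma adjusted p = 0.0633). It passed in 3 of 21 fits, over which its limma adjusted p reached 0.180. Among the fits that left out a library it passed only without TNFR2- replicate 4, its highest TNFR2- value (2.15, limma adjusted p = 0.0243). Slc16a1, which carries lactate both ways, had a log2 fold change of -0.03 (SE 0.18, limma adjusted p = 0.950). The other transporter and lactate dehydrogenase genes tested had log2 fold changes of -1.28 to 2.35, and none passed. Of them, Bsg, the chaperone of these lactate transporters, was separated upward (595 to 712 against 334 to 529), with a log2 fold change of 0.61 (SE 0.19, limma adjusted p = 0.0713). Without TNFR2- replicate 3, Bsg (0.72, limma adjusted p = 0.0371), Ldhb (0.89, limma adjusted p = 0.0406) and the glucose transporter Slc2a6 (3.16, limma adjusted p = 0.0433) passed. None of them passed with any other library left out. Over all fits the limma adjusted p reached 0.179 for Bsg, 0.360 for Ldhb and 0.309 for Slc2a6. With all libraries Ldhb had 0.66 (limma adjusted p = 0.159) and Slc2a6 2.35 (limma adjusted p = 0.160). TNFR2- replicate 3 held the highest TNFR2- value of Bsg (529), of Ldhb (363) and of Slc2a6 (35.2). In the other TNFR2- libraries Slc2a6 was near 0, at 1.06 to 6.97. With the same sum per library Bsg passed too (limma adjusted p = 0.0331).

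At the entry of pyruvate into mitochondria, Pdk1 fell. It encodes pyruvate dehydrogenase kinase 1, which switches off the pyruvate dehydrogenase complex. Normalized counts were 219.7, 433, 263 and 405 in TNFR2+ Tregs and 836, 1016, 492 and 849.7 in TNFR2- Tregs. All TNFR2+ libraries lay below all TNFR2- libraries, and the log2 fold change was -1.28 (SE 0.26, limma adjusted p = 0.00966). Pdha1, a subunit of the complex that Pdk1 acts on, had a log2 fold change of -0.24 (SE 0.19, limma adjusted p = 0.512). The ratio of Pdk1 to Pdha1 was 0.49 of its TNFR2- value in TNFR2+ Tregs, without overlap (exact permutation p = 0.0286, the smallest possible, adjusted p = 0.257). Pdk3, another kinase of the complex, had 186, 221.5, 236 and 182 normalized counts in TNFR2+ and 113, 47.8, 125 and 146 in TNFR2- Tregs. Its libraries were separated upward, with a log2 fold change of 1.04 (SE 0.34) that missed the threshold (limma adjusted p = 0.0793). The other 7 genes tested of this list lay between -0.18 and 0.32, and none passed.

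The remaining calls were Pck2 and Hif1a. Pck2, the mitochondrial phosphoenolpyruvate carboxykinase, had 245, 242, 348 and 255 normalized counts in TNFR2+ and 158, 162, 131 and 146 in TNFR2- Tregs, and a log2 fold change of 0.85 (SE 0.22, limma adjusted p = 0.0301). Without any single library its adjusted p was 0.0509 to 0.0989. Hif1a, the transcription factor of the response to low oxygen, had 6163, 6904, 7805 and 4805 in TNFR2+ and 4447, 3628, 5192 and 3136 in TNFR2- Tregs. It rose by 0.65 on the log2 scale (SE 0.17, limma adjusted p = 0.0355), although TNFR2+ replicate 4 was below TNFR2- replicate 3. The call was lost without TNFR2+ replicate 1, 2 or 3 or TNFR2- replicate 1, 2 or 4. Without TNFR2- replicate 3, the library that stood apart, 3 of the 10 enzymes and 5 genes of the wider lists were called higher. Myc, another regulator of these enzymes, had a log2 fold change of -0.41 (SE 0.22, limma adjusted p = 0.290). All 7 pentose phosphate pathway genes had a positive log2 fold change (0.04 to 0.46) and 0 passed. With a library left out, Tkt passed only without TNFR2- replicate 4, its highest TNFR2- value (0.60, limma adjusted p = 0.0344). Over all fits its limma adjusted p reached 0.2375.

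**Figure D3:**
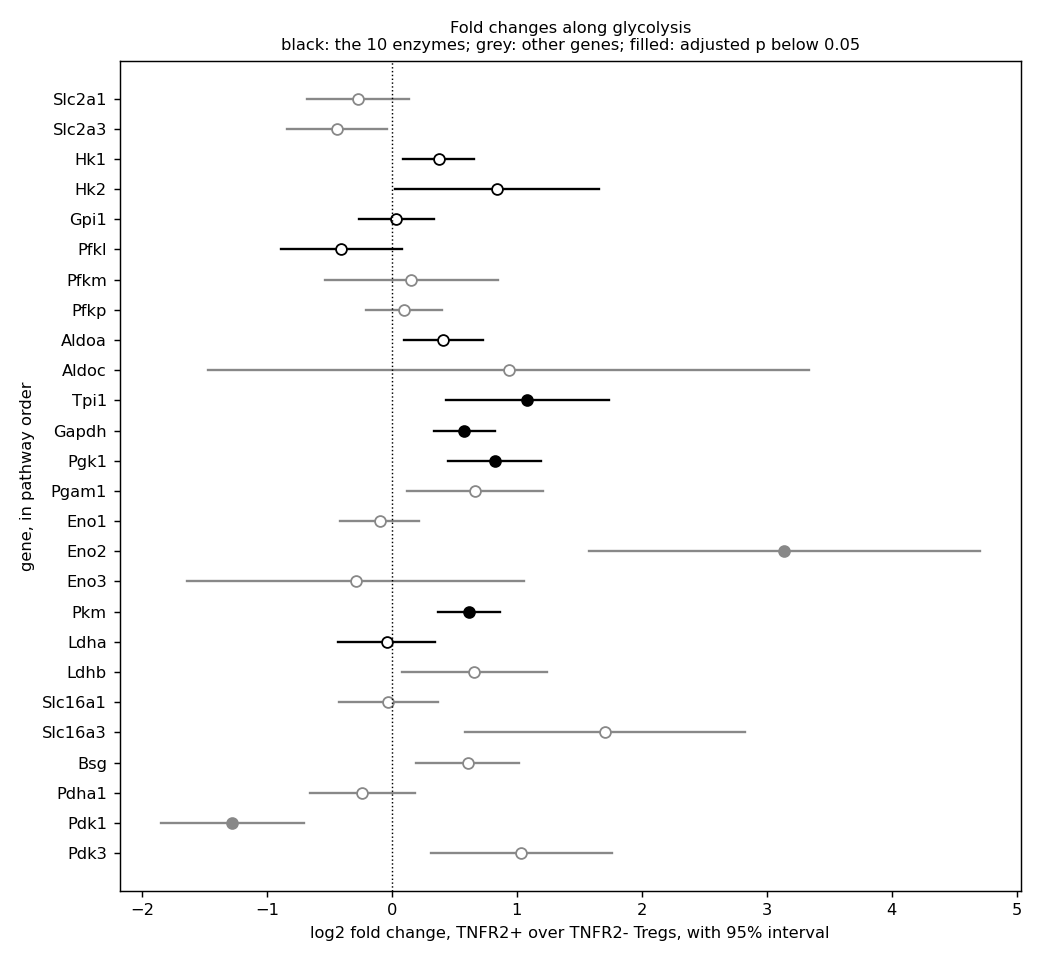
Log2 fold change (horizontal axis, TNFR2+ over TNFR2- Tregs) with its 95% interval for the 10 enzymes (black) and neighbouring genes (grey), in pathway order from glucose uptake to pyruvate dehydrogenase. Filled points have an adjusted p below 0.05: Tpi1, Gapdh, Pgk1, Eno2 and Pkm to the right of 0 and Pdk1 to the left.

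Gapdh is the enzyme for which the count is least certain, because the mouse genome holds many processed copies of its transcript. At 95% identity over at least 50% of the copy, 92 annotated genes matched Gapdh, of which 15 had a value and 5 a mean of at least 10. The stretches below show why reads can be split, with the coding bases 159 to 278 of a Gapdh transcript beside the same stretch of a perfect copy, Gm12671, and of the most abundant one, Gm11960. They are taken from the GENCODE transcripts of GRCm38, and capitals mark the bases at which Gapdh and Gm11960 differ.
Gapdh: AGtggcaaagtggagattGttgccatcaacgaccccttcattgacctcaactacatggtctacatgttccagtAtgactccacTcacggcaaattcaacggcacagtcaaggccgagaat
Gm12671: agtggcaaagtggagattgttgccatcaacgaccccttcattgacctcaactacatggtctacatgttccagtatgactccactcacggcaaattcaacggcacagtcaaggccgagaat
Gm11960: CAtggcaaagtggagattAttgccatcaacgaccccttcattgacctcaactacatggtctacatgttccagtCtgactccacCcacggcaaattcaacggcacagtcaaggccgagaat

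Gm12671 (chromosome 4, 91851668 to 91852669, minus strand) has 0 differences from Gapdh over all 1002 bases of its transcript, so a read from inside it matches both equally well. Gm11960 (chromosome 11, 4561780 to 4564637, plus strand) has 5 differences in the 120 bases shown and 26 in the 885 bases aligned. Of the 31-base stretches of its transcript, 39.6% also occur in Gapdh transcripts, so reads that cover a difference can be told apart. Gm11960 had 655, 367, 389 and 733 normalized counts in TNFR2+ Tregs and 611, 751, 1248 and 397.5 in TNFR2- Tregs, and Gm3839, another copy, 63.3 to 86.4 and 40.3 to 127.5. Gm12671 was listed at 0 in 7 libraries and at 314 in TNFR2- replicate 3. The 15 copies together made up 15%, 8.2%, 10.3% and 17.2% of the sum of Gapdh and copies in TNFR2+ replicates 1 to 4, and 18.8%, 21.3%, 35.6% and 13.4% in TNFR2- replicates 1 to 4. The library with the largest share of copies, TNFR2- replicate 3, was also the one with the lowest Gapdh value.

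With the copies added, Gapdh had 5879, 6491, 5558 and 5302 normalized counts in TNFR2+ and 4238, 4494, 4798 and 4011 in TNFR2- Tregs. The groups still did not overlap, and the log2 fold change was 0.40 (SE 0.10, limma adjusted p = 0.0318) instead of 0.58. This sum can also hold reads that come from Gm11960 itself and were not split from Gapdh. Gpi1 and Tpi1 have 1 annotated copy each, Pkm 1, Ldha 2 and Pgk1 4, of which 0 had a value. Hk1, Hk2, Pfkl and Aldoa had 0 annotated copies. Pgam1 has a copy, Pgam1-ps2, without a difference over its 765 bases, listed at 0 in 7 libraries and at 117 in TNFR2+ replicate 3, where Pgam1 itself was the lowest of the TNFR2+ libraries. Their sum was 297, 367, 325 and 373 in TNFR2+ against 145, 182, 249.8 and 201 in TNFR2- Tregs, and passed the test (log2 fold change 0.83, SE 0.22, limma adjusted p = 0.0339), whereas Pgam1 alone did not.

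**Figure D4:**
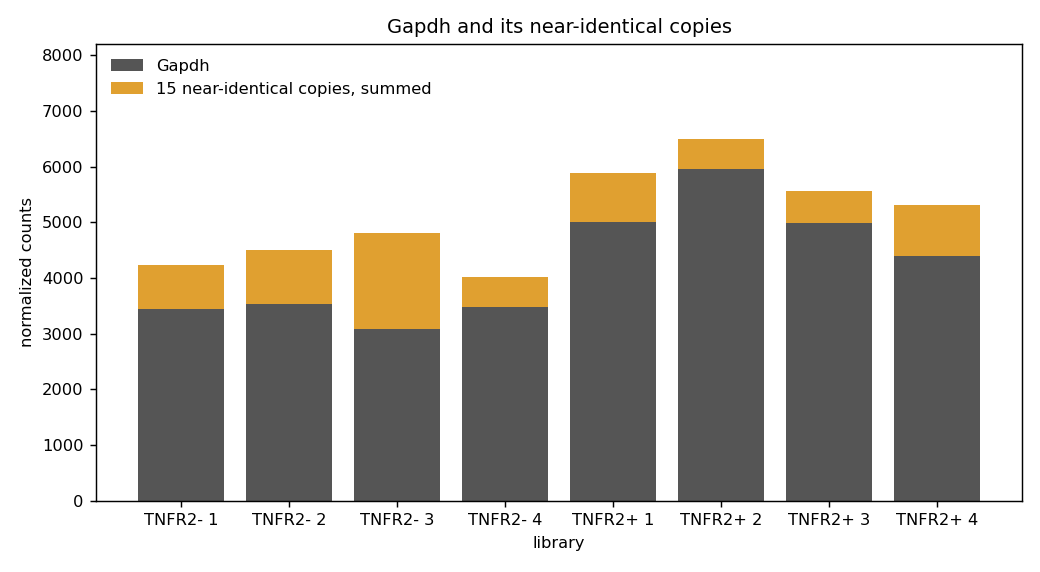
Normalized counts of Gapdh (grey) and of its 15 near-identical copies summed (orange), stacked, in each of the 8 libraries. The stack is lowest in TNFR2- replicate 4 (4011) and highest in TNFR2+ replicate 2 (6491), and the copies take the largest share in TNFR2- replicate 3 (35.6%).

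HIF-1 binds DNA at a short core, ACGTG or GCGTG, and several glycolytic genes are textbook targets. The promoters (250 bases before to 50 after the start, RefSeq, GRCm38.p6) of 2 enzymes called higher with matches, of Tpi1, which had the largest fold change, and of Ldha, which has the most matches, are printed 5′ to 3′ on the strand of the gene. Capitals mark ACGTG or GCGTG on either strand, thus also CACGT and CACGC. Where CACGTG is in capitals, both strands match and the letters are also an E-box.
Pgk1, chrX:106186850-106187149, plus strand: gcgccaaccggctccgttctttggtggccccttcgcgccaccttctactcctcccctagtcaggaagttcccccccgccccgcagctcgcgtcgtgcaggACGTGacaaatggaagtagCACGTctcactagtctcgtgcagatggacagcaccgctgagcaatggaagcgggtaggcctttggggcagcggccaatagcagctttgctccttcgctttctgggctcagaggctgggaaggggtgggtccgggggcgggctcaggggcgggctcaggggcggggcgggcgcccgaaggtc
Gapdh, chr6:125165724-125166023, minus strand: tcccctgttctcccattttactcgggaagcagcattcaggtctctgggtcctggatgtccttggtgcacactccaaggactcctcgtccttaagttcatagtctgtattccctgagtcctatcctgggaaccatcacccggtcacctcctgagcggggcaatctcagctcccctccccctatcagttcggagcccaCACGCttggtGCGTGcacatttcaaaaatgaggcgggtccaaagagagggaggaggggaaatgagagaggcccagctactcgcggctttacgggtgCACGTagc
Tpi1, chr6:124814109-124814408, minus strand: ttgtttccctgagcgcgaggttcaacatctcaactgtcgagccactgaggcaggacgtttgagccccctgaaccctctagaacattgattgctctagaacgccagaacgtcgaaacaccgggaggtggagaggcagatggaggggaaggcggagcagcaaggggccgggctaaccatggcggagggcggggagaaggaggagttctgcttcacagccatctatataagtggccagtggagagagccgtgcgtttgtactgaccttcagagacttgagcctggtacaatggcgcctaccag
Ldha, chr7:46845554-46845853, plus strand: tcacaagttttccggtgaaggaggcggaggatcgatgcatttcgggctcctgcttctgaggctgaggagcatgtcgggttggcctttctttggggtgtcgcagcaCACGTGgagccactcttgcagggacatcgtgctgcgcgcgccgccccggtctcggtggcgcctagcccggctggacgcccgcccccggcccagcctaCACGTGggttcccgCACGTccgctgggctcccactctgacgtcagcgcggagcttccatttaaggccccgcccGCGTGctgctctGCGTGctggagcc

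The Pgk1 promoter holds 2 matches, that of Gapdh 3, that of Tpi1 0 and that of Ldha 7. All 10 enzymes matched an entry of the promoter table, with 15 promoters in all, and 10 of the 15 hold at least 1 match, beside 43.8% of the 32851 promoters in the table. The Aldoa promoters that start at 126799129 and 126799205 overlap and hold the same match, so that site counts more than once. A gene with several promoters also has more chances to hold a match. By gene, 8 of the 10 have a match in at least 1 promoter, all but Gpi1 and Tpi1, beside 46.7% of genes. A match describes letters in this window and not binding, which was not measured in these libraries.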

How the data were processed

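RNA of 8 sorted Treg libraries was measured. Per the study's methods and the submitters' processing notes, the authors checked reads with FastQC 0.11.8, trimmed them with Trim Galore, quantified stranded total RNA libraries with Salmon 1.3.0 on Ensembl GRCm38 and normalized with DESeq2 1.28 in R 4.0. The deposited signal is a normalized count per gene, not a log value, and salmon can split reads among near-identical transcripts. How transcripts were added to genes, and any filter, is not given in the sources used here. Symbols came from GENCODE for GRCm38 (20008 of 20172 identifiers matched).

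Genes with a mean of at least 10 (13990) were tested as log2(normalized count + 1) with limma 3.58.1 in R 4.3.3, with an intensity trend, two-sided, Benjamini-Hochberg adjusted, threshold 0.05. Fold changes are on that scale and understate changes of low genes. Single ratios had exact permutation tests. Depth was estimated from the step between low values and covers counting error only. Copies were found with blastn 2.17.0 (95% identity, 50% of the copy). The procedure was tested on simulated data. Alternatives were pseudocounts of 0.5 and 5, other filters, scalings and variances, the replicate block, copies summed and each library left out. Genes named are the 10 enzymes, listed genes that passed or belong to a ratio, copies with a mean of at least 10, and the 5 most alike profiles, while Myc, Bsg, Pdk3, Slc2a6 and the pentose phosphate gene Tkt were added after their values were seen. The members and lists were chosen with earlier results of these data known.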

Additional observations from a re-analysis of the deposited data

Results flagged for a closer look

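In 106 groups of 4 values checked, 6 held a library far from the other 3, by the gap to its nearest neighbour relative to the range of the group. Chance alone gives about 1 in 20. None of the 6 belongs to the 10 enzymes themselves. Pck2 stood at 347.7 normalized counts in TNFR2+ replicate 3, beside 242.3 to 254.7 in the others. The glucose uptake total stood at 373.9 normalized counts per kb in TNFR2- replicate 3, beside 481.3 to 486.2. The other 4 are near-identical copies. The Gapdh copies 3000002C10Rik (40.83 in TNFR2+ replicate 4, beside 1.57 to 7.87), Gm17068 (97.45 in TNFR2+ replicate 1, beside 22.0 to 30.7) and Gm12671 (314.1 in TNFR2- replicate 3, beside 0) were each high in a different library. The Pgam1 copy Pgam1-ps2 was at 117 in TNFR2+ replicate 3, beside 0 in the others.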

How the results depend on the processing

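Over 20 alternative fits, the median log2 fold change of the 10 enzymes stayed between 0.41 and 0.63, 0 enzymes were called lower, and Pgk1 was called in each. The number called higher was 4, but 1 without an intensity trend, 6 with the same sum per library, mitochondrial genes, Gm26917 and Gm42418 counted or not (Hk1 and Aldoa added), 3 with the replicate block or quantile normalization, and 3 to 4 with a library left out. With the same sum the median of all genes was 0.12 instead of -0.01 and the calls over all genes 904 higher and 309 lower instead of 633 and 474, while without the trend they were 283 and 182, and with a library left out 344 to 761 and 278 to 540. In the wider lists, the 3 higher calls became 1 and the 1 lower call 0 without the trend, the higher calls 5 with array weights and 6 with the same sum, and 0 to 5 with a library left out (0 without TNFR2+ replicate 3, 1 without TNFR2+ replicate 1 or 2 or TNFR2- replicate 1 or 2, and 5 without TNFR2- replicate 3). Values near 0 changed sign: Ldha 0.0881 (same sum), 0.0467 (same sum without mitochondrial genes, Gm26917 and Gm42418) and 0.0087 (quantile), Slc16a1 0.1007 and 0.0593 (both sums) and Eno1 0.0330 (same sum) and 0.0158 (quantile). With a library left out, Ldha ranged from -0.20 to 0.0647, Gpi1 from -0.0467 to 0.16, Slc16a1 from -0.13 to 0.0298, Eno3 from -0.97 to 0.1728 and Pfkm from -0.0250 to 0.30. With the median coding length in place of the principal transcript, the ratio was 0.78 for glucose uptake and 1.51 for lactate export. The cause was not tested. Same-numbered libraries did not deviate together (correlations -0.039 to 0.001), so the main fit was left unpaired. These correlations cannot tell whether same-numbered libraries came from the same mice. The replicate block gave 675 higher and 508 lower genes and removed the calls of Tpi1 (limma adjusted p = 0.0797) and Pck2 (0.0590). Among the 10 enzymes counting error was largest for Hk2 and Tpi1 (6.37% and 6.35% in TNFR2+, 9.16% and 9.97% in TNFR2- Tregs), and it was larger for scarcer genes such as Aldoc.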
